A study of Homo sapiens with 7 samples.

Results

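The comparison set 3 Affymetrix Human Gene 1.1 ST arrays labelled CtBP1 knockdown against 2 arrays labelled CtBP2 knockdown, by the sample titles, and used 5 of the 7 arrays in the series. It covered every transcript cluster (the array's unit of measurement, usually a gene) that the platform annotation gives exactly 1 gene symbol, which was 19181 of 33297 clusters and 17958 genes. The titles and the cell line field give SKOV3, a human ovarian carcinoma line that the labels call serous, for every sample. The source names instead count up from SKOV3 to SKOV9 over the 7 samples, and SKOV3 was taken for all. Both groups are stable clones made with lentivirus and kept in puromycin, and each sample is labelled as a separate clone. The remaining 2 arrays are scramble control clones treated in the same way. They entered no test, and their values are given only for orientation. The knockdown constructs are not described in the sources used here, and the labels state that knockdown was checked by western blot. The labels do not say whether the clones were grown or processed in parallel. Each p-value rests on the spread among 5 arrays, which holds differences between clones as well as technical ones.

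CtBP1 and CtBP2 are closely related transcriptional co-repressors that bind NADH. They do not bind DNA themselves. DNA-binding factors such as ZEB1, KLF and TCF proteins recruit them, and they bring histone deacetylases, the demethylase KDM1A and histone methyltransferases to the bound gene. In epithelial tumours they are best known for repression of CDH1, and their paralogy makes a direct comparison of the knockdowns a way to ask which genes differ in their dependence on the 2 proteins, the question that the study's design text names.

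Of 18 ovarian and Müllerian carcinoma markers measured, some were bright and others near the floor. ERBB2, the receptor kinase amplified in SKOV3, had log2 signals of 9.39, 9.01 and 9.58 for CtBP1 knockdown by label against 9.42 and 9.19 for CtBP2 knockdown, and PAX8, the Müllerian transcription factor, was between 7.06 and 8.65 on all 5. WT1, a serous and mesothelial marker, was near the floor at 1.92 to 2.21. So were EMX2 (1.63 to 1.77), PGR (1.28 to 1.52) and SST (1.75 to 2.00), and MUC16 ran from 2.92 to 5.86. Of 18 leukocyte markers measured, 17 lay under 3 on each of the 5 arrays, PTPRC among them at 1.66 or less, and the exception was the lysosomal protein CD68 at 5.90 to 7.11. All RNA came from whole cultures, in which fewer cells of a type and less RNA per cell cannot be told apart.

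Deposited log2 signals on the 5 arrays ran from 0.80 to 11.7. Over the 19181 clusters the CtBP2 arrays correlated with each other at 0.993, the arrays labelled CtBP1 knockdown at 0.974 to 0.981, and arrays of different groups at 0.971 to 0.978. These values describe arrays across clusters, which are not independent. The median SD of a cluster was 0.160 over the 3 arrays labelled CtBP1 knockdown and 0.0828 over the 2 CtBP2 arrays, and the former was larger in 70.9% of clusters. At equal spread an SD of 2 values tends to be smaller than one of 3, so these SDs are not directly comparable. Scramble control 1 stood apart, with correlations of 0.918 to 0.937 with the knockdown arrays, while scramble control 2 correlated with them at 0.976 to 0.983.

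The targeted genes were examined first. CTBP2 had log2 signals of 6.25, 6.31 and 6.27 where the label says CtBP1 knockdown, against 4.64 and 4.22 where it says CtBP2 knockdown. Every CtBP2 array lay below every other array, the scramble controls (5.70 and 6.14) included. The difference, here and below the mean of the arrays labelled CtBP1 knockdown minus the mean of the CtBP2 arrays, was 1.85 ± 0.15 on the log2 scale (SE of the limma fit, 3 arrays against 2), or 3.60-fold, at an adjusted p of 0.0737. A second, dimmer CTBP2 cluster differed by 0.09 ± 0.09. CTBP1 had signals of 5.11, 6.13 and 6.13 on the arrays labelled CtBP1 knockdown against 6.81 and 6.32 on the CtBP2 arrays. The groups did not overlap, but only array 1 stood clearly lower, and arrays 2 and 3 lay between the scramble controls (5.69 and 6.37). The difference was -0.78 ± 0.38 with a 95% interval of -1.75 to 0.20 and an adjusted p of 0.444 in the limma fit, and it was -0.44 without array 1 labelled CtBP1 knockdown. The CTBP1 signal therefore does not check the label, and these arrays are called labelled CtBP1 arrays in what follows.

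No cluster passed the limma test at an adjusted p under 0.05, which is 0% of 19181 in either direction. The smallest adjusted p was 0.0737, shared by 59 clusters, and 212 clusters had an adjusted p under 0.1, of which 37 were higher and 175 lower on the labelled CtBP1 arrays. At an unadjusted p under 0.05 there were 964 higher clusters (5.03%) and 1805 lower ones (9.41%), so 34.8% of them were higher. Of any size, 53.2% of clusters were higher and 46.8% lower. Groups did not overlap in 16.4% of clusters in the higher direction and 15.9% in the lower. With a difference of at least 1 log2 unit and separated groups there were 118 higher clusters (0.615%) and 262 lower ones (1.37%). With array weights 15 higher and 64 lower clusters passed, and with clusters under a mean signal of 5 left out 3 and 19 passed. An exact two-sided rank test of 3 arrays against 2 cannot give a p under 0.2 for a single cluster. All genes below are therefore described by values, and none of them is a call.

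The excess of lower clusters depended on signal level. Clusters with a mean signal under 2 had a median difference of 0.06, and those between 5 and 7 one of -0.09. The share lower at an unadjusted p under 0.05 was 0.301% in the former and 18.8% in the latter, and 21.6% at a mean of 7 or more. Between 3 and 5, the level of many gene lists below, it was 13.2%, and 5.49% of clusters were higher at that p. After quantile normalization across the 5 arrays the split at an unadjusted p under 0.05 was 1319 higher to 1457 lower clusters, so 47.5% were higher, and the medians by level lay between 0.00 and 0.03 in size. Directions of gene groups are given below with that setting where it turns them.

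**Figure D1:**
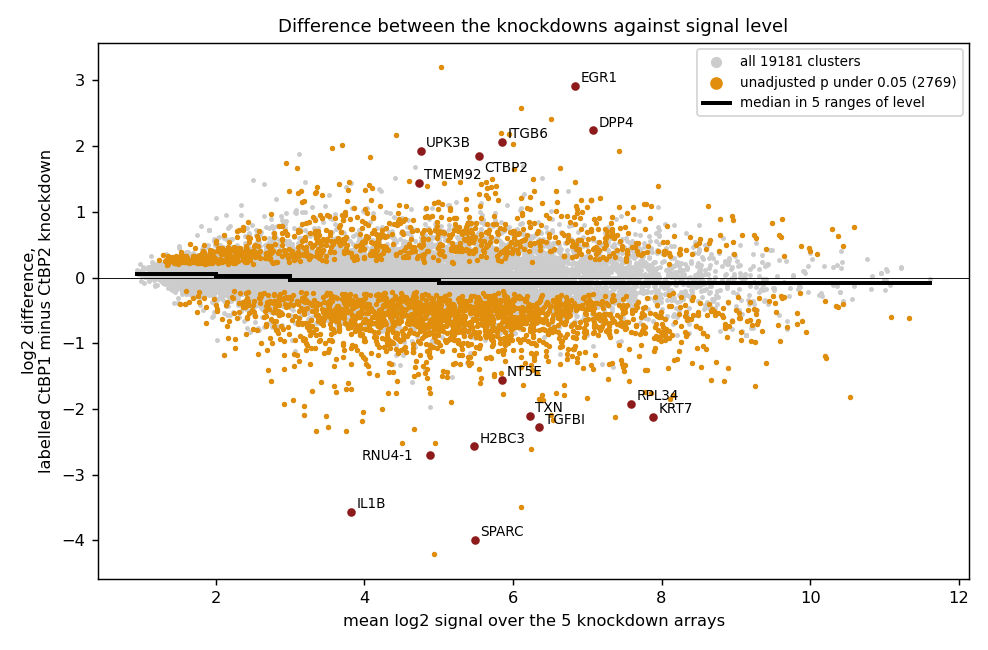
Difference between the knockdowns on the log2 scale (labelled CtBP1 minus CtBP2 arrays) against the mean log2 signal over the 5 arrays, 1 point a transcript cluster. Orange points have an unadjusted p under 0.05, black bars are medians in 5 ranges of level, and these medians go from 0.06 at the dimmest level to -0.08 at the brightest.

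The 10 genes with the smallest p and separated groups were taken in each direction, beginning with those higher on the labelled CtBP1 arrays. FIGN, a microtubule-severing ATPase, had 7.39, 7.41 and 7.47 on the labelled CtBP1 arrays and 6.38 and 6.32 on the CtBP2 arrays, a difference of 1.07 ± 0.08 (SE). Its scramble values of 2.95 and 7.0 were far apart. TMEM92, a transmembrane protein, had 5.29, 5.33 and 5.31 against 4.0 and 3.72, a difference of 1.45 ± 0.11, and both controls (4.15 and 4.29) lay nearer the CtBP2 arrays. UPK3B, a uroplakin and mesothelial marker, had 5.81, 5.28 and 5.49 against 3.49 and 3.71, or 3.81-fold higher, with the controls in between at 3.99 and 4.58. The labelled CtBP1 arrays were thus the high ones for TMEM92 and UPK3B relative to both other groups, by value and without a test. TCF7L2, the Wnt pathway transcription factor that binds CtBP, had 6.84, 6.69 and 6.99 against 5.67 and 5.75, a difference of 1.14 ± 0.12. ICAM2, an adhesion molecule bound by leukocyte integrins, differed by 1.33 ± 0.14, TMEM53 by 1.22 ± 0.13, the zinc finger gene ZMYM5 by 0.94 ± 0.09, the G protein gamma subunit gene GNG11 by 0.93 ± 0.09 and TMEM80 by 0.87 ± 0.09. CTBP2 was the tenth of these genes. Adjusted p over the 10 was 0.0737 or 0.075.

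On the lower side the same rule gave 10 genes of varied function. TXN, the thioredoxin that keeps protein thiols reduced, had 5.36, 5.35 and 5.44 on the labelled CtBP1 arrays and 7.28 and 7.69 on the CtBP2 arrays, 4.29-fold lower. COX7A2, a subunit of cytochrome c oxidase, had 5.05, 5.17 and 5.27 against 6.86 and 7.01, a difference of -1.77 ± 0.11. NT5E, the surface enzyme CD73 that makes adenosine from AMP, had 5.25, 5.24 and 5.19 against 6.62 and 6.94, 2.94-fold lower. In all of these the scramble controls (4.63 and 5.75 for TXN, 5.16 and 5.67 for COX7A2, 5.05 and 4.81 for NT5E) lay nearer the labelled CtBP1 arrays, so the CtBP2 arrays were the high ones. RNU4-1 and RNU5B-1, small nuclear RNAs of the spliceosome, differed by -2.69 ± 0.20 and -2.11 ± 0.15, and TXNL4A, a protein of the same U5 particle, by -1.14 ± 0.08. The histone gene H4C13 differed by -1.58 ± 0.11, RCN1, a calcium-binding protein of the endoplasmic reticulum, by -1.20 ± 0.08, the mitochondrial ribosomal protein gene MRPL3 by -1.24 ± 0.10 and the membrane protein gene CLPTM1L by -0.99 ± 0.08. Each had an adjusted p of 0.0737 in the limma fit. H4C13 and RNU4-1 have near-identical copies, so their values may mix several genes.

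**Figure D2:**
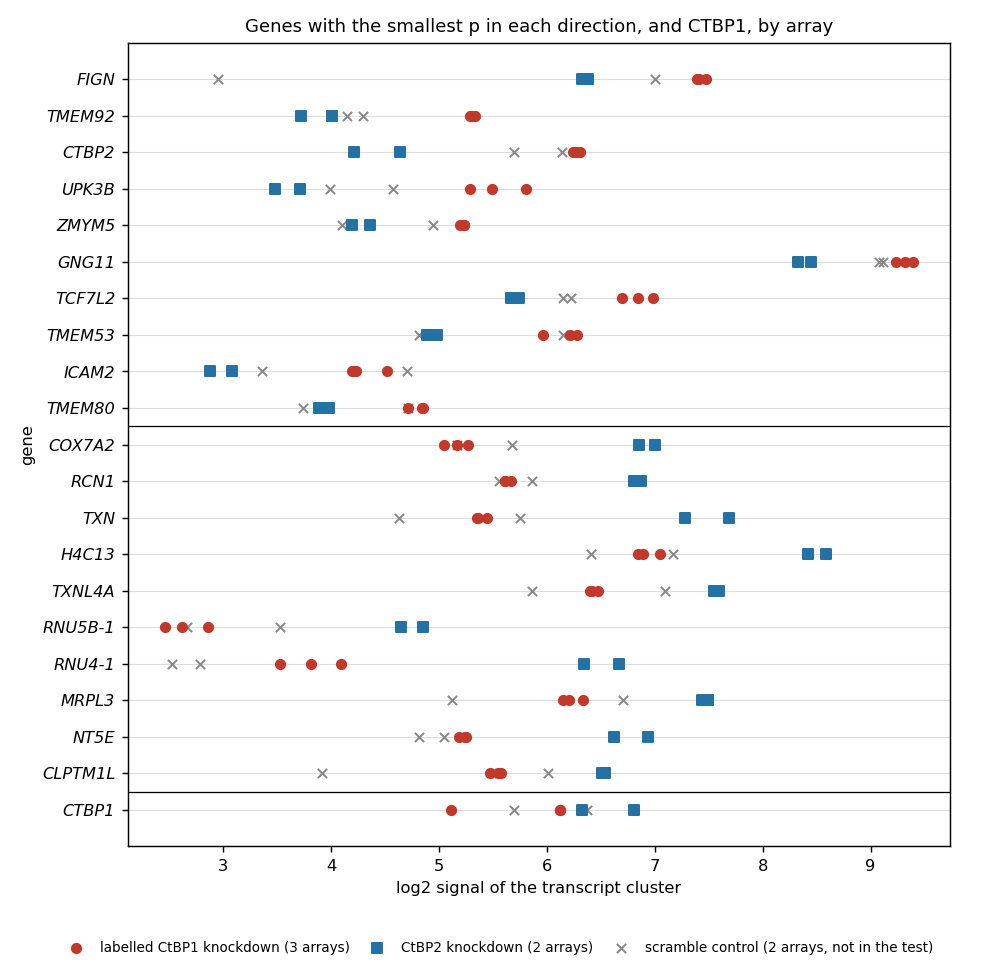
Log2 signal by array for the 10 genes with the smallest p and separated groups in each direction (higher ones on top, lower ones below the first line) and for CTBP1 at the bottom. Red circles are the 3 labelled CtBP1 arrays, blue squares the 2 CtBP2 arrays and grey crosses the 2 scramble arrays; the gap between red and blue is smallest for CTBP1, where the nearest arrays stand at 6.13 and 6.32.

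The proteins through which CtBP acts were examined next. In the core co-repressor complex 18 genes were measured, of which 7 were higher and 11 lower on the labelled CtBP1 arrays, 4 and 5 at an unadjusted p under 0.05 (5.03% and 9.41% over all clusters). The median difference was -0.12, against 0.01 over all genes, and -0.03 after quantile normalization. Each array moved it, to -0.05 without labelled CtBP1 array 1 or 2 or CtBP2 array 1, -0.23 without labelled CtBP1 array 3 and -0.20 without CtBP2 array 2. Among the enzymes, HDAC2, a deacetylase, had 6.87, 6.87 and 6.83 against 7.30 and 7.24, and KDM1A, the demethylase LSD1, had 6.92, 6.85 and 6.90 against 7.15 and 7.31. Both were lower without overlap, by -0.42 ± 0.08 and -0.34 ± 0.09. The deacetylase HDAC1 differed by -0.43 ± 0.15, and the methyltransferases EHMT1 and EHMT2 by 0.12 ± 0.27 and -0.21 ± 0.26. Of the scaffold proteins, PHF21A, which reads unmethylated histone H3, had 6.13, 5.89 and 6.38 against 5.37 and 5.38, and RCOR3 was 0.42 ± 0.12 higher while its paralogue RCOR1 differed by -0.14 ± 0.19. NRIP1, a nuclear receptor co-repressor that binds CtBP, had 5.66, 5.08 and 4.69 against 6.47 and 6.26, or 2.34-fold lower. The chromodomain genes went apart, CDYL by -0.31 ± 0.11 and CDYL2 by 1.05 ± 0.27 (0.63 without CtBP2 array 1). CTBP2 and CTBP1 are themselves counted in this list, and apart from CTBP2 the smallest adjusted p among the members named here was 0.130 in the limma fit, for HDAC2.

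Of 26 DNA-binding factors known to recruit CtBP, 23 were higher on the labelled CtBP1 arrays, 8 of them at an unadjusted p under 0.05 and 11 with separated groups, and none of the 3 lower ones met either. Their median of 0.22 was 0.21 after quantile normalization and 0.12 without labelled CtBP1 array 1. Clusters at the level of the list's median (mean signal between 3 and 5) had a median of -0.04. Some factors were dimmer, and 57.5% of all clusters between 2 and 3 and 72.2% of those under 2 were higher. Over all clusters 5.03% were higher at an unadjusted p under 0.05, and 16.4% had separated groups in that direction. TCF7L2 is described above. TCF7L1, another TCF factor, had 5.06, 5.28 and 5.33 against 4.62 and 4.61, a difference of 0.61 ± 0.11. TGIF1, a homeodomain repressor in TGF-beta signalling, had 7.55, 7.59 and 7.65 against 7.02 and 6.97. All of its 5 clusters were higher, by 0.60, 0.60, 0.65, 0.71 and 0.13. SNAI2, the EMT repressor Slug, had 8.71, 9.58 and 9.63 against 8.33 and 8.53, where array 1 was close to the CtBP2 arrays. ZEB1, the E-box repressor, had 6.11, 5.97 and 6.04 against 5.62 and 5.78, a difference of 0.34 ± 0.10. FOXP1, a forkhead repressor, differed by 0.42 ± 0.11, ELK3, an ETS repressor, by 0.55 ± 0.19 and KLF12 by 0.70 ± 0.23 (0.41 without CtBP2 array 1). Factors near the floor of the array gave small values, ZEB2 0.02 ± 0.11, SNAI1 -0.06 ± 0.16 and ZFPM2 0.11 ± 0.13. The Krüppel-like factors, of which KLF3, KLF8 and KLF12 are known CtBP partners, had a median of 0.12 over 16 genes, 11 higher and 5 lower, and 0.04 without labelled CtBP1 array 3, 0.05 without CtBP2 array 1 or 0.21 without CtBP2 array 2. KLF7 led them with 7.55, 7.33 and 7.14 against 6.62 and 6.58, while KLF10, a TGF-beta inducible repressor, was 0.41 log2 units apart in the other direction (-0.41 ± 0.10).

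Epithelial and mesenchymal genes, classic CtBP readouts, gave mixed directions. Clusters of the level of both lists (mean between 3 and 5) were higher in 5.49% and lower in 13.2% at an unadjusted p under 0.05. The counts of both lists at that p lay near these shares. Of 38 junction and keratin genes 16 were higher and 22 lower, with 2 and 6 at an unadjusted p under 0.05 and a median of -0.10 (-0.06 after quantile normalization, -0.02 without labelled CtBP1 array 2, -0.07 without CtBP2 array 2). KRT7, the keratin of simple epithelia, had 7.82, 6.59 and 6.72 against 9.64 and 8.67, or 4.33-fold lower, and its partner keratins KRT8 and KRT18 differed by -0.60 ± 0.15 and -0.50 ± 0.13. ESRP1, an epithelial splicing regulator, had 1.96, 1.81 and 1.90 against 2.81 and 2.83. It lay near the floor on the labelled CtBP1 arrays and on both scramble arrays, so the CtBP2 arrays alone were above it. PERP, a desmosomal protein, differed by -0.58 ± 0.12, and JUP, the junction protein plakoglobin, was higher by 0.67 ± 0.16. Of 28 mesenchymal genes 17 were higher and 11 lower, 2 and 3 at an unadjusted p under 0.05, and the median was 0.04, which was -0.00 after quantile normalization and -0.01 without labelled CtBP1 array 2 or CtBP2 array 1, and 0.08 and 0.01 without labelled CtBP1 arrays 1 and 3. SPARC, a collagen-binding matrix protein, had the widest values, with 2.13, 3.34 and 6.22 against 8.06 and 7.71. It was lower without overlap by -3.99 ± 1.23, but the labelled CtBP1 arrays spread over more of the scale than separates array 3 from the CtBP2 arrays. MMP2, a gelatinase, had 2.43, 2.91 and 4.07 against 5.10 and 4.58, and VIM, the mesenchymal intermediate filament, 8.90, 8.95 and 9.27 against 9.62 and 9.77. The 2 higher genes at an unadjusted p under 0.05 were the repressors ZEB1 and SNAI2.

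Integrins and basement membrane genes were higher in 22 of 31 cases, 3 at an unadjusted p under 0.05 against 1 lower, with a median of 0.07 (0.08 after quantile normalization, 0.03 without CtBP2 array 2). ITGB6, the beta subunit of the integrin that activates latent TGF-beta, had 6.25, 6.73 and 7.06 against 4.75 and 4.47, 4.19-fold higher at an adjusted p of 0.0885. ITGB8, which has the same role, had 7.67, 5.88 and 7.05 against 5.40 and 5.33, 2.84-fold higher and with array 2 near the CtBP2 arrays. ITGB1, the common beta subunit, went the other way with 7.35, 7.22 and 7.17 against 7.78 and 8.07. Of 33 TGF-beta genes 23 were lower, 5 at an unadjusted p under 0.05 and 1 higher, with a median of -0.16 (-0.08 after quantile normalization) that was -0.03 without CtBP2 array 1. Clusters of the level of the integrin, TGF-beta and Wnt lists (mean between 3 and 5) were lower at that p in 13.2% and higher in 5.49%. The TGF-beta counts lay near this background. TGFBI, a secreted matrix component that TGF-beta induces, had 5.63, 4.88 and 5.81 against 8.05 and 7.39, 4.86-fold lower, with controls below all 5 arrays at 3.17 and 4.0. The signal transducer SMAD2 differed by -0.55 ± 0.10 and ID3, a direct target, by -0.86 ± 0.30. The ID3 difference depended on the CtBP2 arrays, with -0.41 without CtBP2 array 1 and -1.32 without CtBP2 array 2. The negative regulator SKIL differed by -0.54 ± 0.18. Wnt feedback and target genes had no common direction (14 higher and 19 lower, 2 and 4 at an unadjusted p under 0.05, median -0.07, which was -0.02 without labelled CtBP1 array 1 or CtBP2 array 1 and 0.00 without labelled CtBP1 array 2). Their counts at that p also lay near the background. In contrast to the higher TCF7L2 and TCF7L1, the scaffold AXIN1 was lower by -0.85 ± 0.25, the secreted inhibitor DKK1 by -1.03 ± 0.32 and the receptor FZD7 by -0.54 ± 0.11. The cyclin CCND1 was lower by -0.81 ± 0.28 in its brighter cluster and differed by 0.03 in the other.

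Interleukin-1 genes were among those farthest apart in size. IL1B, an inflammatory ligand, had 2.48, 2.97 and 1.73 on the labelled CtBP1 arrays and 6.70 and 5.23 on the CtBP2 arrays, 11.9-fold lower (-3.57 ± 0.57, adjusted p 0.113 in the limma fit). IL1A, the other ligand, had 5.29, 6.75 and 5.0 against 8.17 and 7.38, and its scramble values of 7.31 and 3.93 were far apart. IL1R1, the signalling receptor, had 4.93, 4.17 and 4.23 against 6.09 and 5.80, 2.82-fold lower. For ligands and receptor alike the groups did not overlap and the CtBP2 arrays were higher than the labelled CtBP1 arrays. The controls differed by gene. They were at 3.62 and 2.14 for IL1B, and at 2.85 and 2.69 for IL1R1, below all 5 knockdown arrays. For IL1A the control at 7.31 lay close to CtBP2 array 2. NFKB1, which encodes the NF-kB subunit p50, had 5.08, 4.85 and 4.89 against 6.16 and 6.12, a difference of -1.20 ± 0.11 at an adjusted p of 0.0737, with controls at 4.77 and 4.84. CCL20, a chemokine target of NF-kB, had 1.82, 1.86 and 1.82 against 3.44 and 2.38, and -0.55 remained of its -1.08 without CtBP2 array 1. Over the 41 genes of this list the median was only -0.15 and 27 were lower, 7 at an unadjusted p under 0.05 and 2 higher, and the median was 0.01 without CtBP2 array 1 and -0.08 without labelled CtBP1 array 1 or 3. Clusters of its level (mean between 3 and 5) were lower at that p in 13.2% and higher in 5.49%. The counts of the list lay near these shares.

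Class I antigen presentation and the immunoproteasome were lower in 16 of 18 genes, 9 of them at an unadjusted p under 0.05 with separated groups, and 1 of the 2 higher genes met both. At the list's level (mean between 5 and 7) 18.8% of all clusters were lower and 6.78% higher at that p. Over all levels, 15.9% of clusters had separated groups in the lower direction and 16.4% in the higher. The list's median was -0.44 and -0.38 after quantile normalization, where clusters of the same level had -0.09 and 0.00. B2M, the invariant chain of class I molecules, had 6.17, 6.25 and 6.23 against 7.35 and 7.18, a difference of -1.05 ± 0.09. PSMB9, an immunoproteasome subunit, had 4.28, 4.04 and 4.28 against 5.28 and 5.40, and the array holds 3 PSMB9 clusters with identical values, which count as 1 measurement. The heavy chain genes HLA-B and HLA-C, whose sequences are alike, had 9.17, 8.52 and 8.78 against 9.96 and 9.62, and 8.30, 7.70 and 7.95 against 9.08 and 8.65. TAP2, the peptide transporter, and ERAP1, the trimming peptidase, differed by -0.41 ± 0.10 and -0.77 ± 0.22. The 41 interferon-stimulated genes, a separate list, gave 28 higher and 13 lower, none higher and 2 lower at an unadjusted p under 0.05, and a median of 0.06 (0.03 after quantile normalization or without labelled CtBP1 array 1, 0.11 without array 2, 0.10 without CtBP2 array 2). At that list's level, a mean signal between 2 and 3, 57.5% of all clusters were higher. HERC5, a ligase for ISG15, was lower by -0.62 ± 0.19 (-0.35 without CtBP2 array 1) and the factor IRF1 by -0.39 ± 0.14. The antiviral genes IFIT1 and MX2, near the floor, differed by 0.25 ± 0.13 (0.13 without CtBP2 array 2) and 0.15 ± 0.08.

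The adenosine pathway held large values of opposite sign. Besides NT5E, DPP4, the surface peptidase that anchors adenosine deaminase, had 8.18, 7.41 and 8.33 against 5.37 and 6.10, 4.72-fold higher. ADA, the deaminase itself, had 4.29, 3.95 and 4.18 against 5.44 and 4.73, a difference of -0.94 ± 0.24 that was -0.59 without CtBP2 array 1. The receptor ADORA2B differed by -0.49 ± 0.12 and ADK, the adenosine kinase, by -0.44 ± 0.14. ENPP1, which makes AMP from ATP, differed by -0.75 ± 0.24 (-0.50 without CtBP2 array 2). Of 15 genes measured 10 were lower, 5 at an unadjusted p under 0.05, and DPP4 alone was higher at that p. Clusters of the list's level (mean between 3 and 5) were lower at that p in 13.2% and higher in 5.49%. The list's median was only -0.04. It was 0.01 without CtBP2 array 1 and -0.16 without CtBP2 array 2, and -0.02 and -0.10 without labelled CtBP1 arrays 2 and 3.

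**Figure D3:**
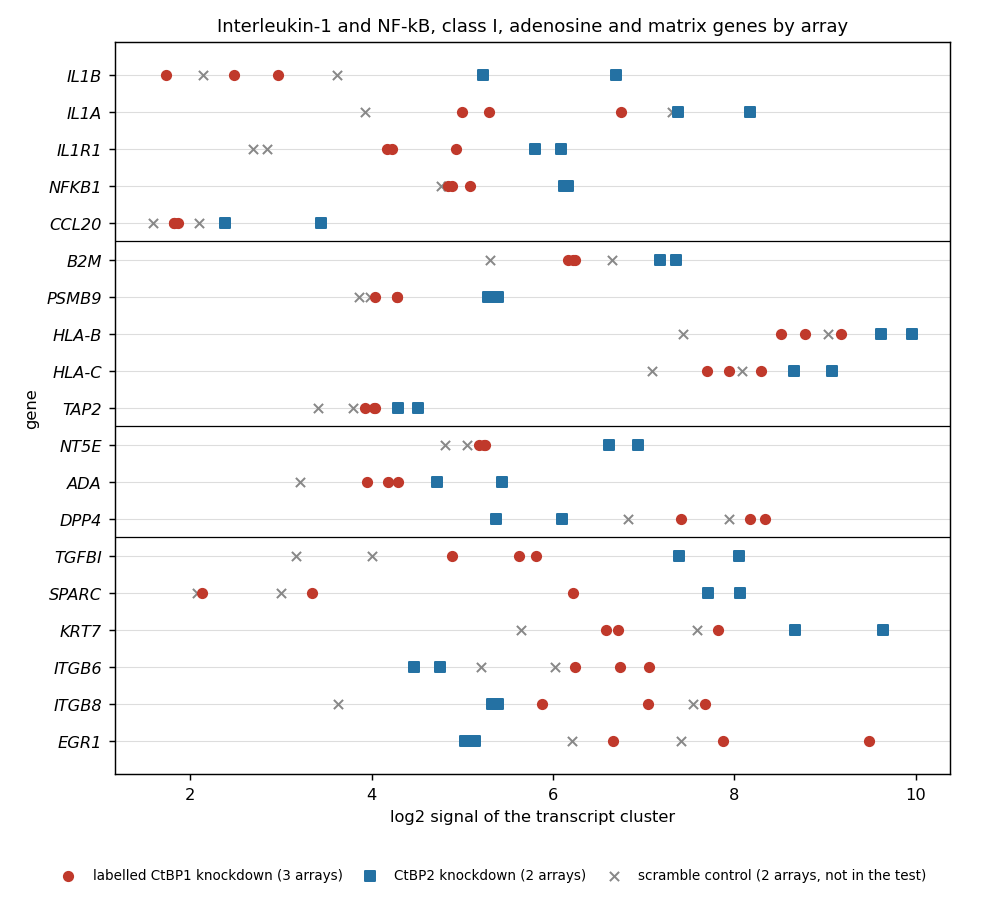
Log2 signal by array for genes of interleukin-1 and NF-kB signalling (top block), class I presentation, the adenosine pathway, and matrix, keratin, integrin and immediate-early genes (bottom block). Red circles are the 3 labelled CtBP1 arrays, blue squares the 2 CtBP2 arrays and grey crosses the 2 scramble arrays; blue is right of red for all genes in the upper blocks except DPP4, and left of red for DPP4, ITGB6, ITGB8 and EGR1.

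Promoters of 3 of these genes are printed because they hold motifs of factors named above: the E-box CACCTG read by ZEB and SNAI proteins, and the NF-kB motif. Each sequence is the 250 bases before the gene's start from RefSeq (GRCh38.p14), written along the gene's strand with motif matches in capitals. ITGB6 (chr2:160200273-160200522, minus strand) holds CACCTG starting 70 bases before the start (-70). NFKB1 (chr4:102501109-102501358, plus strand) holds an NF-kB match at -49. B2M (chr15:44711267-44711516, plus strand) holds an NF-kB match and, at -79, the E-box read from the opposite strand.
ITGB6: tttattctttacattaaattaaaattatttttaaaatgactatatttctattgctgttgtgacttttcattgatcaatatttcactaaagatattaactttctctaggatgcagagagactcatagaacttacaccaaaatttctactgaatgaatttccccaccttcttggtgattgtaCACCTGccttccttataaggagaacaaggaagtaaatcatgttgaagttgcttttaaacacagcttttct
NFKB1: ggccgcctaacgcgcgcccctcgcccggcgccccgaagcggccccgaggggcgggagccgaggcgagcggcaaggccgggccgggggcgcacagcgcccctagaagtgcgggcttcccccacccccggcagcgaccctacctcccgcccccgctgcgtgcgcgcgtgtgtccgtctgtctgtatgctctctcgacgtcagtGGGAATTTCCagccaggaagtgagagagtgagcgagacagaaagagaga
B2M: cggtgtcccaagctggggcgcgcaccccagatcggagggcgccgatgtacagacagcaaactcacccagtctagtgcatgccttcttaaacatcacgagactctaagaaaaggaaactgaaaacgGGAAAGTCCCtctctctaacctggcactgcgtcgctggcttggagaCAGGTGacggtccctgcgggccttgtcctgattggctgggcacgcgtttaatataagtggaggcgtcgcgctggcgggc

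Motif shares were also counted over wider sets, with no test. Promoters were at hand for 705 of 908 genes with a higher cluster, and 1350 of 1697 with a lower cluster, at an unadjusted p under 0.05 with separated groups, and for 13864 of the genes measured. CACCTG, searched on both strands, was in 15% of the higher, 14.7% of the lower and 16.7% of all measured promoters. The KLF box CCACACCC was in 2.27%, 2.44% and 2.85%, and the AP-1 site TGACTCA in 3.55%, 2.44% and 3.05%. The NF-kB motif was in 8.79% of the higher promoters, 13.4% of the lower ones and 11.2% of all measured. In the 27305 promoters of the table the shares were 17.5%, 2.90%, 4.16% and 9.57%. A match describes letters only and shows no binding.

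Replication, mitosis and histone genes were examined together as genes of dividing cells. Over all clusters with a mean signal between 5 and 7, the level of the replication and mitosis lists, 40.7% were higher at any size and 18.8% were lower at an unadjusted p under 0.05. Of 52 DNA replication genes 42 were lower, 19 of them at an unadjusted p under 0.05, none higher at that level, and the median was -0.31 (-0.21 after quantile normalization). RRM2, the ribonucleotide reductase subunit that sets nucleotide supply, had 5.96, 6.02 and 5.91 against 6.98 and 7.35, 2.30-fold lower. RPA2, of the single-strand binding complex, had 3.15, 3.27 and 3.37 against 4.08 and 4.01. The origin subunit ORC5, with 5.17, 5.23 and 5.25 against 6.21 and 5.88, lay below both controls (6.08 and 6.19), so here the labelled CtBP1 arrays stood apart. The clamp loader RFC2 had 6.49 on all 3 labelled CtBP1 arrays against 7.37 and 7.09, and the tie makes its spread uncertain. Of 53 G2/M and mitosis genes 39 were lower, 12 at an unadjusted p under 0.05, with a median of -0.19 (-0.10 after quantile normalization), so its count at that p lay near the share for its level. Its leading members were the phosphatase CDC25A (-0.87 ± 0.12), the kinesin KIF2C (-0.94 ± 0.16), the checkpoint protein BUB3 (-0.68 ± 0.12) and the cyclin CCNB1 (-0.46 ± 0.08). Replication-dependent histones, made in S phase, were lower in 37 of 44 genes, 17 at an unadjusted p under 0.05 (13.2% of clusters between 3 and 5, its level), with a median of -0.55 (-0.49 after quantile normalization). H2BC3 had 4.19, 4.34 and 4.82 against 7.22 and 6.81, 5.93-fold lower, and H4C3 7.08, 7.16 and 7.86 against 9.34 and 9.09. Scramble control 1 had the lowest list medians for these groups, -1.78 for G2/M after subtraction of every gene's mean over the 5 knockdown arrays.

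DNA repair lists had smaller medians: -0.12 for homologous recombination (-0.05 without labelled CtBP1 array 3 or CtBP2 array 2, -0.06 without CtBP2 array 1, and -0.28 without clusters that hold tied values), -0.10 for Fanconi anaemia, -0.02 for end joining and -0.05 for excision and mismatch repair. End joining turned to 0.03, and excision and mismatch repair to 0.00, after quantile normalization. Without labelled CtBP1 array 2 the Fanconi median was -0.03, end joining 0.05 and excision and mismatch repair -0.01, and without labelled CtBP1 array 3 they were -0.16, -0.14 and -0.10. End joining was -0.10 without labelled CtBP1 array 1 and -0.03 without CtBP2 array 2. Without CtBP2 array 1 end joining and excision and mismatch repair were both at 0.00 in size, and the latter was -0.09 without CtBP2 array 2. Members lower at an unadjusted p under 0.05 numbered 7 of 32, 5 of 22, 5 of 23 and 6 of 35, and higher ones 1, 2, 2 and 2. Clusters of these levels were lower at that p in 13.2% (mean between 3 and 5) and 18.8% (between 5 and 7), so the counts lay near the background and are no result about repair genes. BRCA1, the recombination mediator, had 5.78, 5.18 and 5.73 against 6.55 and 6.35, 1.85-fold lower, the resolvase GEN1 differed by -0.75 ± 0.12 and the nuclease EXO1 by -0.62 ± 0.10. MSH6, a mismatch sensor, had 5.0, 4.93 and 4.95 against 5.59 and 5.60, and UNG, which removes uracil, differed by -1.02 ± 0.18. Higher were FANCL, the ubiquitin ligase of the Fanconi complex (0.66 ± 0.13), the end-joining cofactor XRCC4 (0.69 ± 0.16) and DDB2, which finds ultraviolet lesions (0.72 ± 0.15). PRKDC, the kinase of end joining, was lower by -0.49 ± 0.09.

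The lowest median among the protein-coding lists was that of ribosomal proteins. Of 61 cytosolic ribosomal protein genes 59 were lower on the labelled CtBP1 arrays, 41 at an unadjusted p under 0.05 and 50 with separated groups, and the 2 higher genes also had separated groups. At the list's level (mean of 7 or more) 21.6% of all clusters were lower and 9.88% higher at that p. Over all levels, 15.9% of clusters had separated groups in the lower direction and 16.4% in the higher. The list's median was -0.71, and -0.60 after quantile normalization, against -0.08 for clusters of the same level. With every gene's mean over the 5 arrays subtracted, the list stood at -0.61, -0.10 and -0.19 on the labelled CtBP1 arrays and at 0.43 and 0.39 on the CtBP2 arrays, so labelled CtBP1 array 1 was lowest. RPL34 had 6.55, 6.77 and 7.16 against 8.80 and 8.70, 3.79-fold lower, but a second RPL34 cluster differed by -0.38. RPS10 had 7.70, 7.91 and 8.07 against 9.26 and 9.12, and RPL11 5.79, 6.39 and 5.91 against 7.52 and 7.81. RPL27A differed by -1.76 in its leading cluster and by -0.43 and 0.51 in others. Many of these genes have processed copies, so a value may mix several loci.

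The respiratory chain, glycolysis and hypoxia lists had median levels between 5 and 7. Of all clusters at that level, 40.7% were higher at any size, and 18.8% were lower and 6.78% higher at an unadjusted p under 0.05. Respiratory chain genes were lower in 52 of 70 cases, 27 at an unadjusted p under 0.05 and 1 higher. Their median was -0.33, and it was -0.23 after quantile normalization and -0.20 without CtBP2 array 2. After COX7A2 the leading members were complex I subunits: NDUFB6 with 3.83, 3.85 and 3.92 against 4.63 and 4.94, and NDUFC2 with 8.10, 7.89 and 8.03 against 8.96 and 8.77. NDUFS4 differed by -0.90 in one cluster and 0.09 in the other. In glycolysis 20 of 28 genes were lower with a median of -0.17 (-0.09 after quantile normalization, -0.10 without CtBP2 array 1), and the phosphofructokinase genes went apart, PFKM by 0.59 ± 0.09 and PFKL by -0.97 ± 0.26. TALDO1, of the pentose phosphate pathway, differed by -0.68 ± 0.10. Hypoxia-response genes were lower in 23 of 30 cases, 11 at an unadjusted p under 0.05 and none higher, with a median of -0.37 (-0.29 after quantile normalization, -0.20 without labelled CtBP1 array 2). BNIP3, a mitophagy receptor, had 7.08, 6.98 and 6.73 against 8.24 and 8.46, 2.67-fold lower. ADM, the peptide adrenomedullin, had 4.65, 3.80 and 4.12 against 5.86 and 5.88, and the collagen-modifying enzymes PLOD2 and P4HA2 differed by -1.11 ± 0.12 and -0.81 ± 0.10. Cholesterol synthesis had no direction, with a median of 0.08 that was -0.02 without labelled CtBP1 array 1 or 3, 0.18 without array 2, and 0.01 without either CtBP2 array.

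Stress gene lists also had medians under 0. Over 36 ATF4 amino acid stress genes the median was -0.25, with 26 lower, 11 at an unadjusted p under 0.05 and 1 higher. Clusters of the level of the ATF4 and metallothionein lists (mean between 3 and 5) were lower at that p in 13.2% and higher in 5.49%. At any size 44.9% of them were higher. The transporter SLC7A5 had 7.80, 7.62 and 7.40 against 8.49 and 8.66, and ASNS, which makes asparagine, had 3.40, 3.38 and 3.37 against 3.93 and 4.07. The unfolded protein response list was lower in 19 of 25 genes with a median of -0.11 (-0.06 after quantile normalization), led by the chaperone HSP90B1 (-0.58 ± 0.12). Metallothioneins, which bind zinc, were lower in 11 of 12 genes, 6 at an unadjusted p under 0.05 (13.2% of clusters at their level). Their median was -0.56 (-0.50 after quantile normalization). MT1X had 5.69, 5.83 and 5.51 against 7.71 and 7.21, 3.44-fold lower, and its close sequence relatives MT1G and MT2A differed by -0.82 ± 0.09 and -0.60 ± 0.13. The p53 target list, in a line known to lack functional p53, had a median of -0.16 (-0.10 without CtBP2 array 2). GADD45A, a stress-induced growth arrest gene, had 3.43, 3.90 and 3.50 against 5.69 and 5.05, 3.39-fold lower, whereas the p53 targets DDB2 and CCNG1 were higher, by 0.72 ± 0.15 and 0.38 ± 0.10. In the BCL2 family (median -0.07, or 0.01 without CtBP2 array 1, -0.13 without CtBP2 array 2 and -0.02 without labelled CtBP1 array 2 or 3) the survival factor MCL1 was lower by -0.57 ± 0.12 and the effector BAK1 by -0.71 ± 0.20, while BCL2L1 differed by 0.40 ± 0.21 (0.25 without labelled CtBP1 array 3).

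Immediate-early genes held the member with the largest positive difference of any list. EGR1, a growth factor-induced transcription factor, had 6.66, 7.87 and 9.48 on the labelled CtBP1 arrays against 5.03 and 5.14, a difference of 2.92 ± 0.83. The groups did not overlap, but the labelled CtBP1 arrays spanned more than the gap between array 1 and the CtBP2 arrays. DUSP1, a phosphatase that ends MAP kinase signals, had 7.65, 6.92 and 7.22 against 6.62 and 6.08, and DUSP4 went the other way (-0.94 ± 0.24). The 36 genes had a median of -0.06 (-0.18 without labelled CtBP1 array 3, -0.03 without array 1, -0.04 without array 2 and -0.02 without CtBP2 array 1), with 4 higher and 4 lower at an unadjusted p under 0.05. Clusters of their level (mean between 3 and 5) were higher at that p in 5.49% and lower in 13.2%. Marker lists stayed small: ovarian and Müllerian markers had a median of 0.03 (-0.05, 0.15 and 0.01 without labelled CtBP1 array 1, 2 or 3, and 0.01 without CtBP2 array 2), in which PAX8 was higher by 1.08 ± 0.23 and SOX17 lower by -0.78 ± 0.19. Among 11 mesothelial markers UPK3B alone had an unadjusted p under 0.05. No leukocyte, fibroblast or endothelial marker had one, and their list medians were 0.06 and 0.01, the latter -0.03 after quantile normalization, -0.00 without CtBP2 array 2, and 0.03 without CtBP2 array 1 or labelled CtBP1 array 3.

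**Figure D4:**
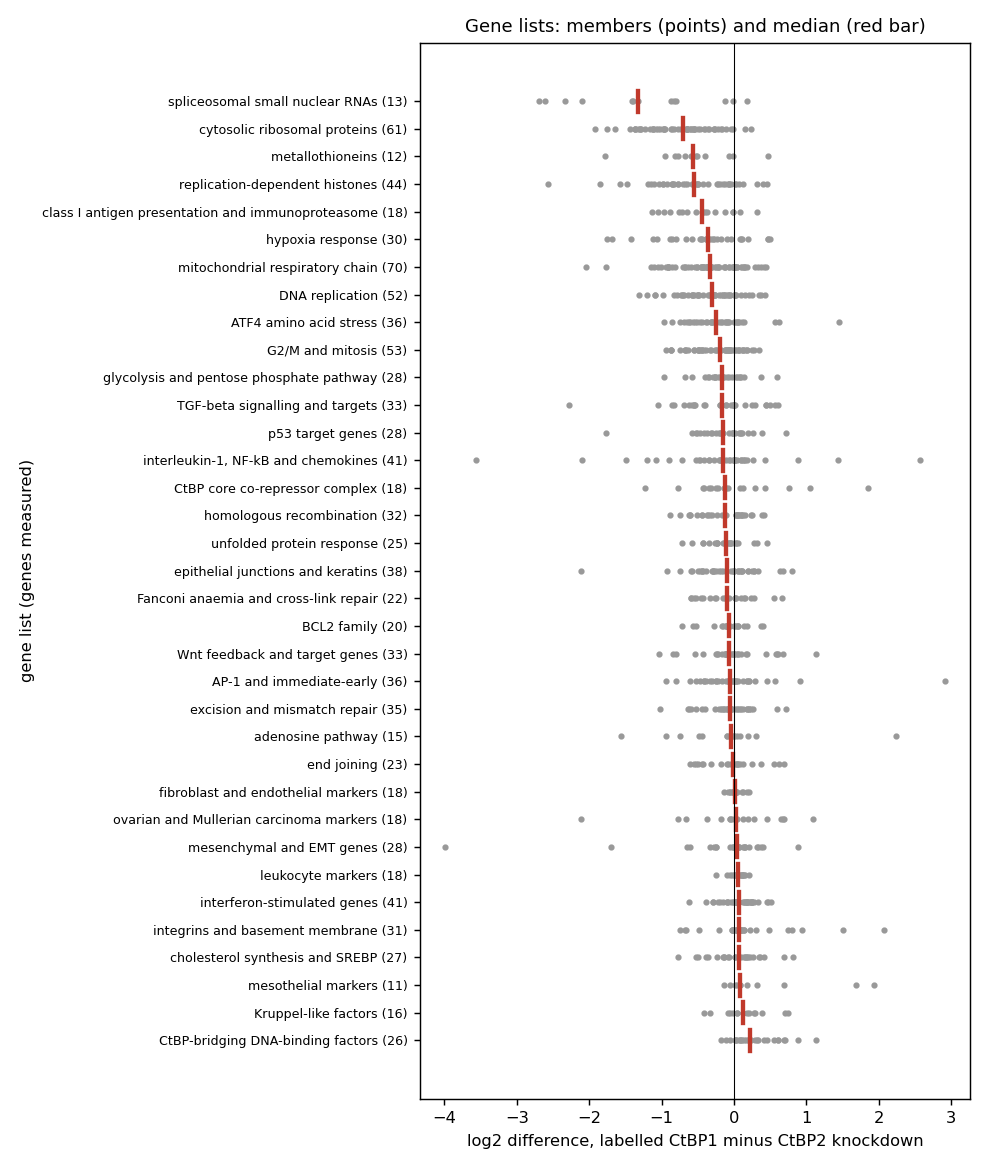
Log2 difference (labelled CtBP1 minus CtBP2 arrays) of every measured gene in 35 gene lists, 1 grey point a gene, with the list's median as a red bar and the number of genes in brackets. Medians go from -1.32 for small nuclear RNAs and -0.71 for ribosomal proteins to 0.22 for the DNA-binding factors that recruit CtBP.

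Small RNAs gave the lowest list median. Of 13 spliceosomal small nuclear RNA genes 12 were lower on the labelled CtBP1 arrays, 8 at an unadjusted p under 0.05 and 10 with separated groups, with a median of -1.32 (-1.25 after quantile normalization). At the list's level (mean between 3 and 5) 13.2% of all clusters were lower at that p. Over all levels, 15.9% of clusters had separated groups in that direction. RNU4-1 had 3.81, 3.53 and 4.09 against 6.35 and 6.66, 6.48-fold lower. RNU5B-1 had 2.62, 2.86 and 2.46 against 4.86 and 4.65, and RNU4ATAC, of the minor spliceosome, 6.56, 6.18 and 6.83 against 7.75 and 8.07. Nucleolar and Cajal body RNAs, families grouped by symbol after their values were seen, had smaller medians of the same sign. Box C/D RNAs were lower in 70 of 121 genes (23 lower and 2 higher at an unadjusted p under 0.05, median -0.11), box H/ACA RNAs in 48 of 67 (18 and 3, median -0.15) and Cajal body RNAs in 12 of 16 (5 and 0, median -0.34). Clusters of the box C/D level (mean between 2 and 3) were lower at that p in 2.57%, and those between 3 and 5, the level of the others, in 13.2%. Box C/D groups were separated in 38 lower and 20 higher genes, beside 15.9% and 16.4% of all clusters. With gene means subtracted, the box C/D median was 0.04 on labelled CtBP1 array 3 and 0.01 on CtBP2 array 1, so the arrays overlapped. SCARNA9 had 4.45, 4.55 and 4.53 against 5.51 and 5.62. The labels name a silica column kit and the design text TRIzol for the RNA, and the part of extraction in these small RNA values was not tested.

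Further families were grouped by symbol. Proteasome, chaperonin and mitochondrial ribosomal genes had median levels between 5 and 7. Over all clusters of that level, 18.8% were lower and 6.78% higher at an unadjusted p under 0.05. Proteasome subunits were lower in 32 of 37 genes (17 lower and 1 higher at an unadjusted p under 0.05, median -0.38) and the CCT chaperonin, which folds actin and tubulin, in 8 of 9 (7 and 0, median -0.58), led by CCT2 with 6.22, 6.18 and 6.33 against 7.27 and 7.30. Mitochondrial ribosomal proteins were lower in 52 of 72 (21 and 6, median -0.17). Zinc finger genes with a ZNF symbol, the largest family, went the other way, with 292 of 486 higher and 193 lower (26 and 18 at an unadjusted p under 0.05) and a median of 0.05, or 0.07 after quantile normalization. Of clusters at their level (mean between 3 and 5), 44.9% were higher at any size. At that p 5.49% were higher and 13.2% lower, so the count of higher ZNF genes at that p lay near the background. Precursors of microRNAs were higher in 146 of 195 genes, 13 at an unadjusted p under 0.05 and 1 lower, with a median of 0.06 at a median level of 1.74. Of all clusters with a mean under 2, 72.2% were higher at any size and 2.96% at an unadjusted p under 0.05. The direction of the precursors at any size therefore lay near that of their level. After quantile normalization 103 of the precursors were higher and 92 lower, with a median of 0.01. MIR30C2 and MIR221 lay above that level, with 5.31, 5.57 and 5.31 against 4.21 and 4.29, and 3.95, 4.14 and 4.14 against 2.98 and 3.27. These are precursor or host transcript signals and do not measure the mature microRNA.

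Some genes separated the labelled CtBP1 arrays from each other more than from the CtBP2 arrays. In 1460 clusters the SD over the labelled CtBP1 arrays was at least 0.5, and the array farthest from the other members of its group was array 1 in 476 of them, array 2 in 633 and array 3 in 351. Of the 20 genes with the largest SD, chosen after their values were seen, several were germline antigens high on array 1: SPANXD had 8.88 there and 2.61 and 3.14 on the others, and MAGEC1 5.64 there and 2.12 and 1.91 on the others. CD34, a surface sialomucin, had 6.69 on array 1 and 3.12 on the others. Array 3 held the high values of KRT5, a basal keratin (3.87, 4.42 and 7.77), and VSNL1, a calcium sensor (2.80, 2.81 and 6.0). FN1, the matrix protein fibronectin, was highest on array 2 (2.33, 5.68 and 3.32). The secreted factors SPP1, with 7.75, 4.59 and 6.62, and MMP1, with 5.84, 6.60 and 8.99, varied as much yet stayed above the CtBP2 arrays throughout, at 3.20 and 3.03 and at 4.10 and 5.04. Every labelled CtBP1 array is a clone of its own, and clone and knockdown cannot be told apart within an array.

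**Figure D5:**
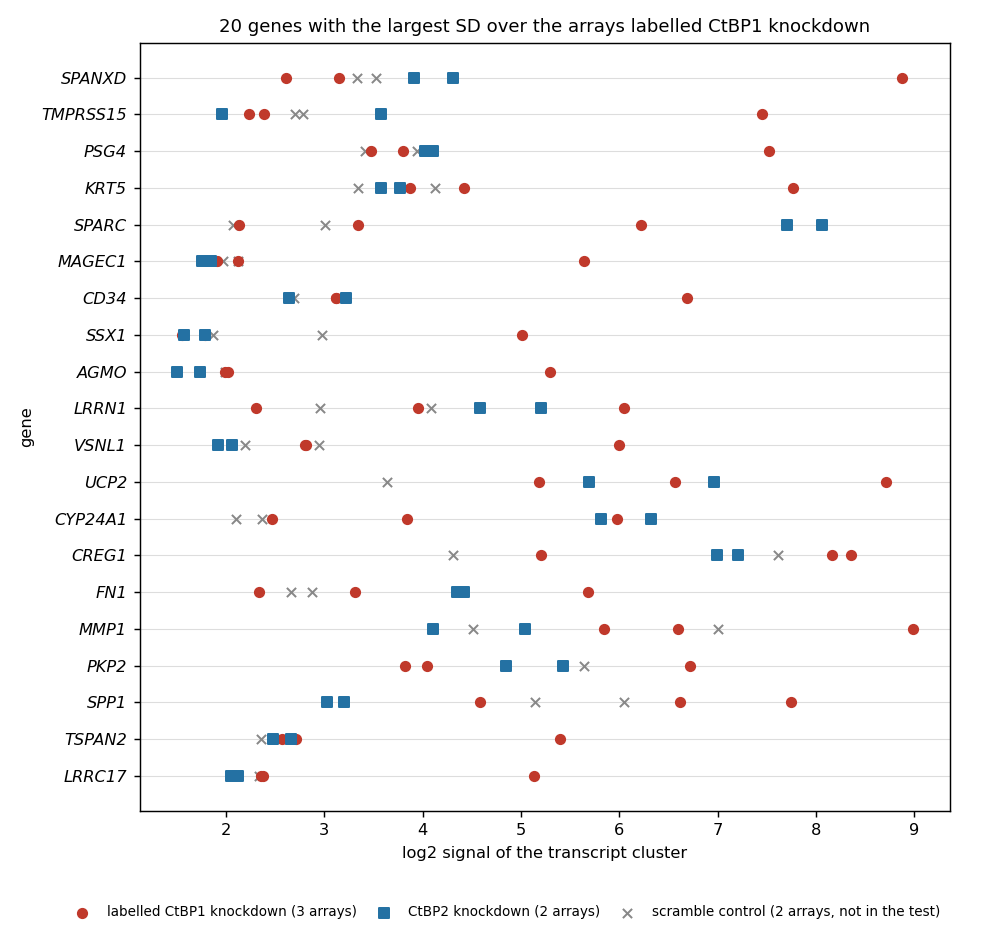
Log2 signal by array for the 20 genes with the largest SD over the 3 labelled CtBP1 arrays, in order of that SD. Red circles are the labelled CtBP1 arrays, blue squares the 2 CtBP2 arrays and grey crosses the 2 scramble arrays; most genes have 1 red point far from the others, as for SPANXD at 8.88 against 2.61 and 3.14.

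The position of the control arrays was read beside the comparison without a test. Over all 17958 genes both scramble arrays lay nearer the labelled CtBP1 mean in 36.0% and nearer the CtBP2 mean in 20%. Among 1663 genes lower on the labelled CtBP1 arrays at an unadjusted p under 0.05 with separated groups, these shares were 60.0% and 3.67%. Among 872 such higher genes they were 33.9% and 18.1%. Scramble control 1 differed by direction, as it lay nearer the labelled CtBP1 mean in 89.7% of the lower and 44.8% of the higher genes. Its signals had a narrower interquartile range, 2.22, against 2.85 to 3.15 on the knockdown arrays and 3.09 on scramble control 2. The lower genes were mostly bright, and the part of this narrower range in the shares for that array and for both arrays was not tested. Scramble control 2 lay nearer the labelled CtBP1 mean in 66.6% and 71.0%, against 56.3% over all genes.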

How the data were processed

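The authors deposited a log2 signal for every transcript cluster on each array. Per the submitters' processing notes, RMA and Affymetrix Expression Console were used. Genome build and versions are not given in the sources used here. RMA equalises probe distributions before it summarises them, so only relative levels are measured. Symbols were updated through Entrez identifiers for 19143 of 19181 clusters, and no dim cluster was left out.

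Groups came from the sample titles. A model with 2 group means was fitted to 5 arrays with limma 3.58.1 in R 4.3.3 (lmFit, eBayes), two-sided, with Benjamini-Hochberg adjustment over 19181 clusters at 0.05. The fit had 3 residual degrees of freedom. Errors after ± are SEs of this fit, and folds are of signal. Lists used the brightest cluster of a gene and had no set test. Per-array list medians were taken after subtraction of every gene's mean over the 5 knockdown arrays. The members and lists (35 lists, 999 genes measured) were chosen with earlier results of these data known. Named genes were the 10 smallest p with separated groups per direction (placeholder, MIR, SNOR and Y-linked symbols passed over), CTBP1, CTBP2, and up to 6 smallest p of each list, or any member of CtBP and marker lists. Motifs and control positions had been planned for genes past the threshold. As none passed, genes at an unadjusted p under 0.05 with separated groups were used.

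In simulated data 44% of 100 clusters changed by 1 log2 unit and 81% of 100 changed by 2 were recovered. There were 12 false calls among the unchanged ones of 19181 clusters. The simulation drew independent normal noise with the same spread in both groups. In the data the median SD was 0.160 over 3 arrays and 0.0828 over 2, which are not directly comparable. Whether the groups have the same spread was not tested, so these rates may not carry over. Values were identical on 2 or more of the 5 arrays in 5482 clusters, and 356 clusters repeat another cluster's values. Alternatives were quantile normalization, median centring, signal minimums of 3 and 5, 1 cluster a gene, all 7 arrays, a variance trend, robust eBayes, array weights, no tied clusters, the replicate block and leaving out each array. Figures were drawn with matplotlib 3.10.9.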

Additional observations from a re-analysis of the deposited data

How the results depend on the processing

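Calls at an adjusted p under 0.05 appeared under 2 of 16 alternatives: 3 clusters higher and 19 lower with a mean signal of at least 5, and 15 higher and 64 lower with array weights, where the adjusted p of CTBP2 was 0.0479 (1.85) and 0.0444 (1.84). Under the other 14 there were 0. The count higher at an unadjusted p under 0.05 (964) was 561 and 309 with signal minimums of 3 and 5, 489 with all 7 arrays in the fit, and 547 to 1509 without each array in turn, lowest without CtBP2 array 1 (549 without CtBP2 array 2) and highest without labelled CtBP1 array 2. The count lower (1805) was 806 with a minimum of 5, 1039 with all 7 arrays, and between 1152 (without CtBP2 array 1) and 1805 without each array. The smallest adjusted p without each array was 0.112 to 0.415. The cause of these shifts was not tested.

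The labels number the samples within groups, and deviations of same-numbered arrays correlated at 0.0900 and 0.0988 over only 2 pairs, so the numbers were not taken to pair the clones. With the replicate block 0 clusters passed, 713 were higher and 1781 lower at an unadjusted p under 0.05, CTBP1 differed by -0.95 (adjusted p 0.496) and CTBP2 by 1.85 (adjusted p 0.307), all in the limma fit. No CtBP2 array has the number 3, so labelled CtBP1 array 3 had a block of its own and added nothing to the differences. Left out altogether, it gave the same -0.95 for CTBP1 and 1.85 for CTBP2.

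Of 3202 values for 209 named genes under the alternatives, 0 reversed and 40 passed the threshold, 29 with array weights and 11 with a minimum of 5. Those genes were chosen on these arrays, which makes a reversal unlikely. Without 1 array 38 of 211 genes and 25 of 35 list medians moved by over 1.5 times. Of 559 list medians under the alternatives 20 turned sign, in 11 lists, among them leukocyte markers at -0.25 with a signal minimum of 3 or 5, where the list is reduced to its bright members. The number of arrays limits the precision, with 2 on the CtBP2 side.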
